A study of Mus musculus with 8 samples.

Results

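The genes described here are 44 imprinted genes of the mouse, that is, genes read mainly or only from the copy inherited from one parent. They were picked by gene name from a fixed list, whatever their counts, out of 55421 genes in the table, and all 44 passed the filter on low counts. By the allele from which they are usually read, 23 are paternally expressed, 12 maternally expressed, and 9 depend on the tissue. The counts are summed over both alleles, so they give the amount of transcript and not the state of the imprint.

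RNA came from primary cultures of mouse spermatogonia (SSC culture), set up from testes of young pups on a C57BL/6XDBA/2 background and grown with GDNF and bFGF on a layer of irradiated embryonic fibroblasts (MEF feeders). The pups lacked either Stra8, a factor induced by retinoic acid that is needed to enter meiosis, or Spo11, which makes the meiotic DNA breaks. Each culture received vehicle (Veh) or NRRA, which is a nutrient restriction medium based on EBSS together with retinoic acid, for 2 days. There were 2 libraries for each of the 4 combinations, and wild-type cultures were not analysed here, so each knockout is compared only with the other. The study's methods describe the libraries of a group as independent biological replicates, and the p-values measure the spread between these libraries.

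Imprinted genes lie in clusters, each governed by a stretch of DNA that carries methylation on one parental copy. In male germ cells the imprints of the embryo are erased and paternal ones are set before birth, so that spermatogonia of a pup carry a paternal pattern on both copies at these control regions. In somatic cells such as fibroblasts the silent copy stays silent. Many imprinted genes act on growth: Igf2, Peg3 and Dlk1 encode proteins of growth and stem cell pathways, while H19, Cdkn1c, Grb10 and Igf2r are known to restrain it.

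Library totals ran from 20960794 to 27038868 counts. Stra8 had 2, 0, 169 and 170 counts in Stra8KO (Veh, then NRRA) against 28, 12, 12604 and 16191 in the cultures labelled Spo11KO. Spo11 was not lower in the latter, with 72, 75, 148 and 127 counts against 32, 31, 68 and 66 in Stra8KO, so its counts do not check that label. The tissue markers showed both germ cells and fibroblasts in every library. The 16 fibroblast markers together took 2.54% and 2.605% of counts with Veh and 4.27% and 4.22% with NRRA in Stra8KO, against 1.46% and 1.45% with Veh and 2.58% and 2.47% with NRRA in those labelled Spo11KO. The 8 pan-germ markers, Ddx4 and Dazl among them, took 0.0675% to 0.0828% in the Stra8KO libraries and 0.150% to 0.190% in those labelled Spo11KO. Macrophage, Sertoli and Leydig markers each took at most 0.00444% of counts in any library, and Insl3, a defining Leydig gene, had at most 2 counts. In such bulk samples, fewer cells of a type and less RNA per cell cannot be told apart.

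The imprinted genes together held 0.420% and 0.421% of counts with Veh and 0.540% and 0.533% with NRRA in Stra8KO, against 0.317% and 0.320% with Veh and 0.379% and 0.385% with NRRA in those labelled Spo11KO. The share was thus higher after NRRA in both genotypes, and higher in Stra8KO in both media, with no overlap between the 4 groups. The fibroblast share was also higher after NRRA within each genotype and in Stra8KO within each medium, but that of Stra8KO Veh overlapped that of Spo11KO NRRA. The part of the feeder cells in this was not tested. Igf2r, Gnas and Meg3 made up 42.8% to 61.3% of these counts.

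Levels are CPM, the counts of a gene scaled to a common library size of 1e+06 counts after TMM scaling. Per kilobase of exon, averaged over the 8 libraries, H19 stood highest at 114 CPM per kb, followed by Igf2r at 95.8 and Gnas at 73.3. Grb10 (27.2), Meg3 (25.6) and Blcap (24.1) came next. By group, H19 had 33.3 CPM per kb in Stra8KO Veh against 122 for Igf2r, but stood above Igf2r in Spo11KO Veh (74.9 against 71.5) and in both NRRA groups. At the low end were Kcnq1ot1 (0.383), Usp29 (0.175) and Magel2 (0.0782 CPM per kb), the first of these counted over a transcript of 93092 bases. Of all 44 genes, 19 had at least 20 CPM in every library, 4 fell under 1 CPM in some library, and none was at 0 in any. Replicate libraries gave similar levels, with a median ratio of 1.065 over 176 pairs of gene and group. The wider gaps were at low counts, the widest that of Magel2.

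**Figure D1:**
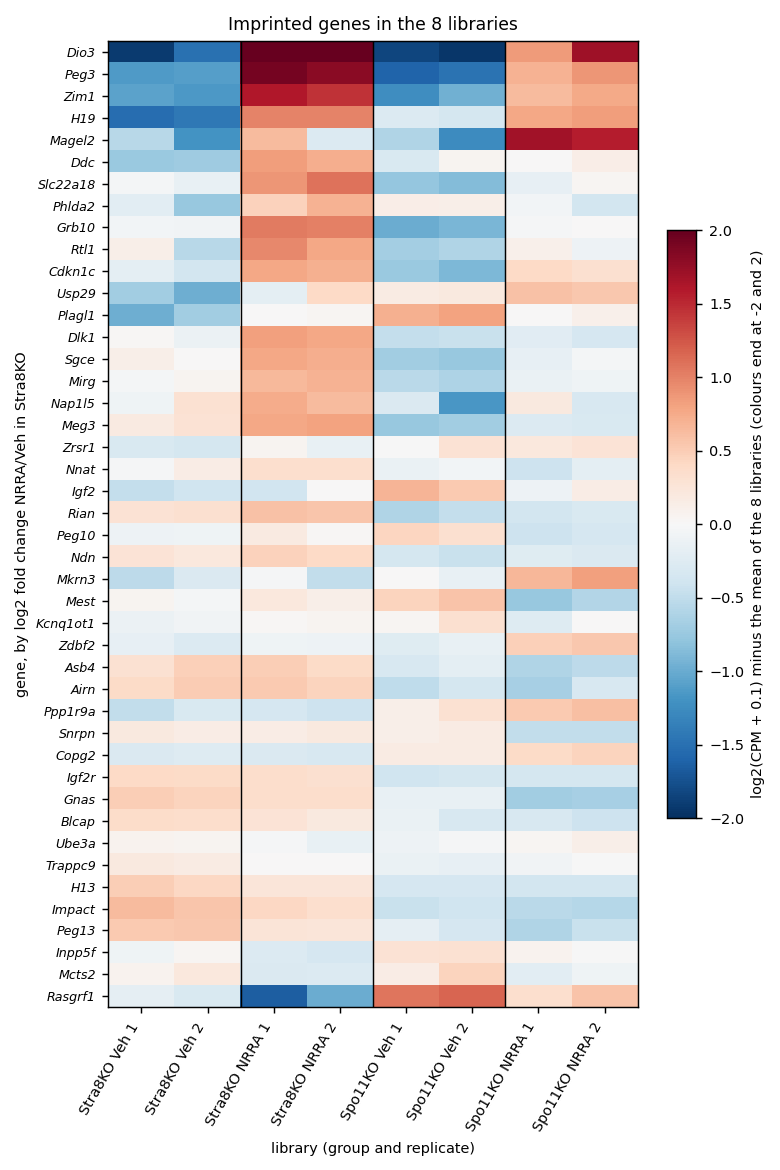
Level of each imprinted gene in each of the 8 libraries, as log2(CPM + 0.1) minus the gene's mean over the libraries, with genes ordered by their log2 fold change under NRRA in Stra8KO. Dio3, Peg3, Zim1 and H19 at the top are high in all 4 NRRA libraries, and Rasgrf1 at the bottom is highest in Spo11KO Veh and lowest in Stra8KO NRRA.

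Differences were tested by edgeR's quasi-likelihood method, with Benjamini-Hochberg adjusted p-values over 20588 genes, and the threshold for a call was 0.05. Dio3 had 7 to 9 counts in each Veh library, and Magel2 had 1 to 9 counts in each library outside Spo11KO NRRA. Both passed the filter on low counts only through the libraries where they were high, so their calls are not independent of it. In Stra8KO, NRRA called 30 of the 44 imprinted genes, where 41.5% of all tested genes were called. Of these, 21 were higher (21.4% of all genes) and 9 lower (20.1%). In the cultures labelled Spo11KO it called 32 of 44 against a background of 50.3%, 19 higher (24.7% of all genes) and 13 lower (25.5%). Between genotypes in Veh, 33 of 44 were called against 62.1% of all genes, 20 higher in Stra8KO (31.5%) and 13 lower (30.7%). In NRRA, 39 of 44 were called against 64.3%, 29 higher in Stra8KO (35.2%) and 10 lower (29.1%). The interaction (the response to NRRA of Stra8KO minus the response of the other genotype) was called for 20 of 44 against 24.7%, 15 positive (14.6%) and 5 negative (10.1%). Calls with at least a 2-fold change numbered 11 for NRRA in Stra8KO (10.6% of all genes), 7 for NRRA in the other genotype (12.4%), 6 between genotypes in Veh (16.2%), 10 in NRRA (18.7%) and 5 for the interaction (5.62%). The shares of all genes, here and below, are not matched for level, and their difference from those of the imprinted genes was not tested.

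The median log2 fold change of the 44 genes was 0.23 under NRRA in Stra8KO, where the median of all tested genes was 0.01, and 0.13 in the cultures labelled Spo11KO, where that of all genes was again 0.01. Between genotypes it was 0.20 in Veh and 0.68 in NRRA, beside 0.0017 and 0.07 for all genes. Scaling by total counts moved the median of all genes by -0.11 for the genotype difference in Veh and by -0.21 in NRRA. With that scaling the split under NRRA in the cultures labelled Spo11KO was 23 higher and 10 lower, and that of the interaction 13 positive and 9 negative. Over all genes 61.8% of calls were higher in the former and 38.7% positive in the latter. The comparisons that share a group (NRRA in Stra8KO and genotype in Veh, for example) use the same libraries, so their values are given side by side only.

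The 2 NRRA comparisons rest on separate libraries. In both genotypes 13 imprinted genes rose, namely Dio3, Peg3, Zim1, H19, Cdkn1c, Grb10, Slc22a18, Rtl1, Sgce, Mirg, Meg3, Rian and Ndn, which is 29.5% of the 44 beside 13.2% of all tested genes. In both, 6 fell (Rasgrf1, Mcts2, Inpp5f, Peg13, Impact and Gnas), which is 13.6% beside 13.6%. Of the 13 that rose, Dio3 passed the filter on low counts only through the NRRA libraries, and the Ndn calls were the weakest. That in the cultures labelled Spo11KO (0.13) was lost in 5 of 8 refits without 1 library (0.07 without Spo11KO Veh replicate 2), that in Stra8KO (0.18) without Stra8KO Veh replicate 2 or Stra8KO NRRA replicate 1, and both with the DESeq2 Wald test. Plagl1 and Peg10 rose in Stra8KO and fell in the cultures labelled Spo11KO. Ube3a was called the other way, at -0.14 in Stra8KO and 0.14 in the other genotype. Without Stra8KO NRRA replicate 2 the former was -0.08 (edgeR adjusted p 0.337), also lost without either Stra8KO Veh library, and without Spo11KO NRRA replicate 2 the latter was 0.08 (adjusted p 0.305), also lost without Spo11KO Veh replicate 1. Airn, Asb4, Igf2r and Nap1l5 were called in neither. Of the 12 maternally expressed genes, 8 rose and 0 fell in Stra8KO and 9 rose and 0 fell in the cultures labelled Spo11KO. Of the 23 paternally expressed ones 11 rose and 3 fell in the former and 8 rose and 9 fell in the latter. The 9 genes that depend on the tissue had 2 higher and 6 lower, then 2 higher and 4 lower. Of all tested genes 21.4% rose and 20.1% fell in Stra8KO, and 24.7% and 25.5% in the other genotype, and the difference between the allele classes was not tested.

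**Figure D2:**
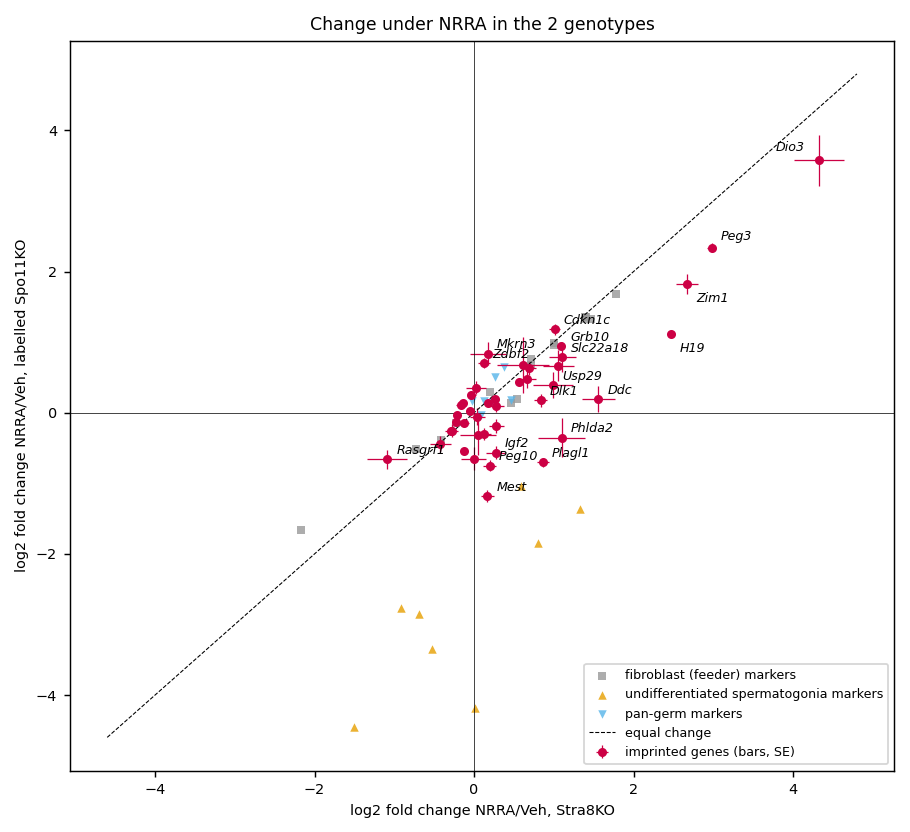
Log2 fold change under NRRA in Stra8KO (x axis) and in the cultures labelled Spo11KO (y axis) for 43 imprinted genes (circles, bars are SE; Magel2 is left out for its low counts) and 3 marker lists. Dio3, Peg3, Zim1 and H19 lie at the upper right, with larger values in Stra8KO, while Mest, Peg10, Igf2 and Plagl1 lie below 0 on the y axis alone, on the side of the undifferentiated spermatogonia markers.

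Peg3 and Zim1, neighbours on chromosome 7, had the largest rises after Dio3 in Stra8KO. Peg3 (chromosome 7, 6703892 to 6730431, minus strand, GRCm38) encodes a zinc finger protein that is read from the paternal copy. It had 61.0 and 62.3 CPM with Veh and 506 and 466 with NRRA in Stra8KO, against 43.9 and 47.9 with Veh and 217 and 247 with NRRA in those labelled Spo11KO. All NRRA libraries stood above all Veh libraries, and the Stra8KO ones above the others within each medium. The rise was 7.89-fold in Stra8KO (log2 2.98, SE 0.058, edgeR adjusted p 1.32e-23) and 5.06-fold in the cultures labelled Spo11KO (log2 2.34, SE 0.0594, adjusted p 4.31e-21). The interaction of 0.64 (SE 0.083, adjusted p 1.49e-06) was called too.

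Zim1 (chromosome 7, 6671269 to 6696450, minus strand), a maternally expressed zinc finger gene next to Peg3, had 3.18 and 3.02 CPM with Veh and 20.9 and 18.7 with NRRA in Stra8KO, against 2.82 and 3.44 with Veh and 10.6 and 11.6 with NRRA in those labelled Spo11KO. It followed the order of Peg3 in NRRA, but its Veh libraries overlapped between genotypes. The log2 rises were 2.67 (SE 0.138) and 1.83 (SE 0.145). Their difference of 0.84 was called (adjusted p 0.0041), and without Spo11KO Veh replicate 2 it was 0.70 with an edgeR adjusted p of 0.0644. So the pair of genes, which are usually read from opposite parental copies, rose side by side, and Peg3 stayed 8.45 to 15.1 times above Zim1 per kb of exon. Usp29, which starts near Peg3 on the other strand, had 1.79, 1.46, 2.56 and 3.92 CPM in Stra8KO (Veh, then NRRA) and 3.33, 3.39, 4.48 and 4.33 in the cultures labelled Spo11KO. It rose in Stra8KO by 0.99 (log2, SE 0.252, adjusted p 0.0013), but without Stra8KO NRRA replicate 2 by 0.64 with an adjusted p of 0.115. Of its exon bases 14.3% lie opposite Zim3, and the sources used here do not say whether strand was used in counting.

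In both genotypes the rises of Peg3, Zim1 and Dio3, that of H19 in Stra8KO and that of Magel2 in the cultures labelled Spo11KO were beyond the largest rise of any of the 16 fibroblast markers, which was 1.78 (Col3a1, a fibrillar collagen) in Stra8KO and 1.68 in the other genotype. Those markers had a median change of 0.72 in each genotype, 12 higher and 4 lower, and the pan-germ markers one of 0.25 and 0.18. Dio3 and Magel2 passed the filter on low counts only through libraries where they were high, so their rises are not independent of it. The marker values stand beside every rise below, but the 16 markers need not span the changes of other feeder transcripts. The part of changing feeder or germ cell shares was not tested.

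The promoters of the 3 genes that rose most in Stra8KO are shown because all 3 rose in both genotypes, with those of Plagl1 and Mest, which had large interactions. They are 300 bases long, from 250 before to 50 after the start, from RefSeq on GRCm38.p6, written 5′ to 3′ on the strand of the gene. Capitals mark TGCCGC, the letters of the ZFP57 motif, or GCGGCA, the same letters on the other strand. ZFP57 is a zinc finger protein that keeps methylation at imprinted control regions.
Peg3, chr7:6730370-6730669, minus strand: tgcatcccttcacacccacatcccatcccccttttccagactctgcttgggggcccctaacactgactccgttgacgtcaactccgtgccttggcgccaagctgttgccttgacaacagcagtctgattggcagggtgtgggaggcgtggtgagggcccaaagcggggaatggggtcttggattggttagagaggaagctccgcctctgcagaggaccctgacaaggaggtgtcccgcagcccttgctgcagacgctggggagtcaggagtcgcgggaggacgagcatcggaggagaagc
Zim1, chr7:6696383-6696682, minus strand: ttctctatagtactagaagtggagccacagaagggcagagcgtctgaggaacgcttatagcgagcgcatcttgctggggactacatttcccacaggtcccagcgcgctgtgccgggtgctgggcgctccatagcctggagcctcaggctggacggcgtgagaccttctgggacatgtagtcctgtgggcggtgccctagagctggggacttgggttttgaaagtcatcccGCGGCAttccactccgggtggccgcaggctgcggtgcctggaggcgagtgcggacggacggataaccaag
Dio3, chr12:110278980-110279279, plus strand: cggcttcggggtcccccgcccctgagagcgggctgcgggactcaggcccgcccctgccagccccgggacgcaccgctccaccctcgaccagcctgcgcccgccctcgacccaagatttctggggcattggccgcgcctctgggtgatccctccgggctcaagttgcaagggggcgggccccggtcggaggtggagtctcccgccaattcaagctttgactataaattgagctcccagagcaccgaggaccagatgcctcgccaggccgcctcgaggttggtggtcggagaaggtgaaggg
Plagl1, chr10:13090582-13090881, plus strand: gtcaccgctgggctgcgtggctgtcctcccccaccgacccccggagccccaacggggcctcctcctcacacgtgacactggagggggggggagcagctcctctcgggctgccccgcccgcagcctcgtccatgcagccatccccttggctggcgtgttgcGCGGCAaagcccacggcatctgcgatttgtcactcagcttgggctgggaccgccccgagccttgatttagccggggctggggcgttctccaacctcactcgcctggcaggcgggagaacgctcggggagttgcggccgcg
Mest, chr6:30737800-30738099, plus strand: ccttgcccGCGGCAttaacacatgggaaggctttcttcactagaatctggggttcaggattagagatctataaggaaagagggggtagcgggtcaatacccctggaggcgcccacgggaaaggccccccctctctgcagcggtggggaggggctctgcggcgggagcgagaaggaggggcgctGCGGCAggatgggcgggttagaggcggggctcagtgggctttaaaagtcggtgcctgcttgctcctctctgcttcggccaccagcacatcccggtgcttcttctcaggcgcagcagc
Zim1 and Plagl1 held the letters 1 time and Mest 2 times, whereas the windows of Peg3 and Dio3 held none. Over all imprinted genes, 36 had a promoter in the table, with 53 windows, of which 13 (24.5%) held the letters on either strand, beside 11.6% of all 32851 promoters. The letters hold a CG. The median over all promoters was 7 CG, beside 13 for the window of Peg3, 25 for Dio3, 26 for Plagl1 and 17 for Mest. The shares are not matched for CG, and their difference was not tested. Mest windows that start at 30737800 and 30737803 were counted separately. The genes with them were Copg2, Grb10, Igf2, Mcts2, Meg3, Mest, Nap1l5, Nnat, Plagl1, Snrpn, Zdbf2 and Zim1, some of which rose, some fell and some were not called under NRRA. H19, Cdkn1c, Impact, Peg10, Peg13, Rtl1, Sgce and Trappc9 had no entry.

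In the Dlk1-Dio3 domain on chromosome 12, the protein-coding genes are read from the paternal copy and the long noncoding RNAs from the maternal one. Dio3, the enzyme that inactivates thyroid hormone (chromosome 12, 110279068 to 110281097, plus strand), had 7 and 9 counts with Veh and 154 and 172 with NRRA in Stra8KO, against 8 and 7 with Veh and 70 and 145 with NRRA in those labelled Spo11KO. These were 0.313, 0.453, 7.43, 7.94, 0.337, 0.305, 2.70 and 4.95 CPM in the same order. Dio3 was thus near its lowest countable level without NRRA and separated by medium in every library. Its log2 rise was 4.32 (SE 0.316, edgeR adjusted p 7.49e-15) in Stra8KO and 3.58 (SE 0.362, adjusted p 5.50e-11) in the cultures labelled Spo11KO, and the difference between the 2 rises was not called (interaction 0.75, SE 0.714, adjusted p 0.511). After NRRA it was higher in Stra8KO by 0.98, a value that ran from 0.63 without Spo11KO NRRA replicate 1 to 1.51 without replicate 2.

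Meg3 (chromosome 12, 109541001 to 109571726, plus strand), the maternal noncoding RNA of the domain, had 483 and 522 CPM with Veh and 729 and 750.5 with NRRA in Stra8KO, against 253 and 266 with Veh and 353 and 348 with NRRA in those labelled Spo11KO. The 4 groups did not overlap. It rose by 0.56 (log2, SE 0.0375) and 0.44 (SE 0.0385) under NRRA and was higher in Stra8KO by 0.95 in Veh and 1.08 in NRRA (edgeR adjusted p 1.16e-25 in the latter). Rian and Mirg, transcripts downstream of Meg3 that carry small nucleolar RNAs and microRNAs, went the same way. Rian rose by 0.26 and 0.20 and Mirg by 0.67 and 0.48, with genotype differences of 0.84 and 0.60 in Veh.

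Dlk1, a membrane ligand related to Notch ligands (chromosome 12, 109452823 to 109463336, plus strand), had 20.9 and 18.8 CPM with Veh and 36.1 and 34.9 with NRRA in Stra8KO, against 14.7 and 15.0 with Veh and 17.5 and 16.1 with NRRA in those labelled Spo11KO. Its NRRA libraries stood apart in Stra8KO and only slightly in the other genotype. It rose by 0.84 (log2, SE 0.0798, edgeR adjusted p 9.45e-12) in Stra8KO, beside 0.18 (SE 0.0896, adjusted p 0.10) in the cultures labelled Spo11KO, and the interaction of 0.66 was called (SE 0.121, adjusted p 4.09e-05). Rtl1, a gene derived from a retrotransposon and expressed in placenta, had 44 to 135 counts over the libraries. It rose by 1.06 in Stra8KO and by 0.67 in the cultures labelled Spo11KO. The latter call was lost without Spo11KO Veh replicate 1 (0.63, adjusted p 0.0654) or Spo11KO NRRA replicate 1 (0.56, adjusted p 0.0843).

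H19 and Igf2 are neighbours on chromosome 7 that share enhancers and are usually read from opposite parental copies. H19, a noncoding RNA (chromosome 7, 142575529 to 142578143, minus strand), had 79.2 and 84.7 CPM with Veh and 453 and 455 with NRRA in Stra8KO, against 189.8 and 179 with Veh and 391 and 406 with NRRA in those labelled Spo11KO. Without NRRA the level was lower in Stra8KO, and with NRRA it was slightly higher there, so that the order of the genotypes changed. H19 rose 5.54-fold in Stra8KO (log2 2.47, SE 0.0437, edgeR adjusted p 3.79e-36) and 2.16-fold in the cultures labelled Spo11KO (log2 1.11, SE 0.0401, adjusted p 2.09e-25), and the interaction was 1.36 (SE 0.0587, adjusted p 1.09e-21). Its genotype difference was -1.17 in Veh (adjusted p 1.34e-24) and 0.19 in NRRA (adjusted p 5.06e-05). The latter was -0.02 with scaling by total counts, so its direction depends on the scaling.

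Igf2, the growth factor (chromosome 7, 142650766 to 142666816, minus strand), did not follow H19. It had 14.0 and 15.0 CPM with Veh and 15.1 and 19.8 with NRRA in Stra8KO, against 31.5 and 28.2 with Veh and 18.3 and 21.8 with NRRA in those labelled Spo11KO. The Spo11KO Veh libraries stood above the other 6. Igf2 fell by 0.57 (log2, SE 0.0934, edgeR adjusted p 5.53e-06) in the cultures labelled Spo11KO. In Stra8KO its change was 0.27 (SE 0.116, adjusted p 0.0613), and 0.45 with an adjusted p of 0.0025 without Stra8KO NRRA replicate 1. It was lower in Stra8KO in Veh (-1.04, SE 0.104), and the interaction was 0.84 (SE 0.149, adjusted p 5.58e-05). Per kb of exon, H19 stood 13.1 to 14.8 times above Igf2 in the 4 Veh libraries and 43.3 to 70.0 times above it in the 4 NRRA libraries. Of the exon bases of Igf2, 62.8% are shared with a readthrough gene model on the same strand, Gm49394, so its level is uncertain where reads were split.

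Igf2r, which binds IGF2 and carries it to the lysosome (chromosome 17, 12682406 to 12769664, minus strand), was called in neither NRRA comparison. It had 1138 and 1131 CPM with Veh and 1104 and 1080 with NRRA in Stra8KO, against 654 and 677 with Veh and 674 and 679 with NRRA in those labelled Spo11KO. Every Stra8KO library lay above every library labelled Spo11KO. The changes under NRRA were -0.05 (SE 0.0321, edgeR adjusted p 0.177) and 0.02 (SE 0.0324, adjusted p 0.565), the first of which was called at -0.08 with DESeq2 size factors and the second at 0.12 with total counts. The genotype differences were 0.77 in Veh and 0.69 in NRRA. Airn, the paternal noncoding RNA that overlaps Igf2r, had genotype differences of 0.87 and 0.97 and changes under NRRA of 0.04 and -0.06, neither called.

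Of 12 further genes of the IGF system (ligand, receptors, binding proteins and RNA-binding partners of Igf2 mRNA), all 12 were called under NRRA in Stra8KO, 9 higher and 3 lower, and 11 in the cultures labelled Spo11KO, 7 higher and 4 lower, beside 41.5% and 50.3% of all genes. The largest changes were those of Igf1 (2.85 and 2.75), Igfbp3 (2.30 and 2.50) and Igfbp4 (-1.51 and -1.17). Igf2bp1, which binds Igf2 mRNA and is known from embryonic cells, fell by 0.13 in Stra8KO and by 1.14 in the cultures labelled Spo11KO (interaction 1.02, edgeR adjusted p 1.12e-18). Counts of Igf1 in Stra8KO were 76 and 66 with Veh and 544 and 488 with NRRA.

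Beside H19 on chromosome 7 lies the Kcnq1 domain. Cdkn1c, an inhibitor of the cell cycle kinases (chromosome 7, 143458339 to 143461050, minus strand), had 26.5 and 23.5 CPM with Veh and 51.6 and 49.4 with NRRA in Stra8KO, against 18.1 and 16.1 with Veh and 39.8 and 38.0 with NRRA in those labelled Spo11KO. The groups did not overlap. Its rises of 1.01 (log2, SE 0.0726, edgeR adjusted p 2.08e-15) and 1.18 (SE 0.0763, adjusted p 6.98e-17) differed by -0.17 (SE 0.107, adjusted p 0.27). Of its exon bases, 30.7% lie opposite another annotated gene, Gm44732.

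Slc22a18, a transporter gene of the same domain, had 3.53 and 3.27 CPM with Veh and 6.81 and 7.85 with NRRA in Stra8KO, against 2.11 and 1.96 with Veh and 3.24 and 3.75 with NRRA in those labelled Spo11KO. Spo11KO NRRA overlapped Stra8KO Veh. It rose by 1.10 (log2, SE 0.169) and 0.79 (SE 0.208). Phlda2, a restrainer of placental growth with 17 to 55 counts a library, rose by 1.10 in Stra8KO (SE 0.295, edgeR adjusted p 0.0023), beside -0.35 (adjusted p 0.307) in the other genotype. Without Stra8KO Veh replicate 2 its rise was 0.85 (adjusted p 0.0554) and its interaction 1.20 (adjusted p 0.0531), where all libraries gave 1.45 (adjusted p 0.0064). Kcnq1ot1, the paternal antisense RNA of the domain, fell by 0.30 in the cultures labelled Spo11KO. That call was lost without Spo11KO NRRA replicate 1 (-0.19) or Spo11KO Veh replicate 2 (-0.17), and without Spo11KO NRRA replicate 2 the value was -0.46.

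Plagl1, Mest and Peg10 are paternally expressed genes with called interactions of 0.95 or more. Plagl1, a zinc finger gene that acts on a network of other imprinted genes (chromosome 10, 13060504 to 13131694, plus strand), had 20.7 and 25.1 CPM with Veh and 41.0 and 42.0 with NRRA in Stra8KO, against 66.5 and 71.4 with Veh and 40.8 and 43.6 with NRRA in those labelled Spo11KO. Far apart in Veh, the genotypes met in NRRA, where their libraries overlapped. Plagl1 rose by 0.86 (log2, SE 0.0773, edgeR adjusted p 1.48e-12) in Stra8KO and fell by 0.71 (SE 0.0631, adjusted p 1.23e-12) in the cultures labelled Spo11KO. The interaction of 1.57 (SE 0.0997, adjusted p 2.74e-16) was the largest of the called ones. Its genotype difference was -1.60 (SE 0.0719) in Veh and -0.03 (SE 0.0679, adjusted p 0.747) in NRRA.

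Mest, a hydrolase-like protein gene (chromosome 6, 30723547 to 30748465, plus strand), had 25.3 and 23.7 CPM with Veh and 28.3 and 26.6 with NRRA in Stra8KO, against 33.2 and 36.2 with Veh and 14.4 and 16.2 with NRRA in those labelled Spo11KO. The libraries labelled Spo11KO were the highest in Veh and the lowest in NRRA. It fell by 1.18 (log2, SE 0.0797, edgeR adjusted p 2.93e-16) there, beside a change of 0.17 (SE 0.0813, adjusted p 0.103) in Stra8KO, with an interaction of 1.35 (SE 0.114, adjusted p 1.45e-12). Copg2, a coat protein gene that shares 912 exon bases with Mest on the other strand, rose by 0.25 in the cultures labelled Spo11KO and had an interaction of -0.28. Per kb of exon, Mest stood at 0.551 to 0.676 of Copg2 in 6 libraries and at 0.215 and 0.234 in Spo11KO NRRA.

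Peg10, derived from a retrotransposon (chromosome 6, 4747306 to 4760517, plus strand), had 25.8 and 26.0 CPM with Veh and 31.2 and 28.2 with NRRA in Stra8KO, against 37.2 and 34.3 with Veh and 20.6 and 21.8 with NRRA in those labelled Spo11KO. The order of groups was that of Mest. It fell by 0.75 (log2, SE 0.0736, edgeR adjusted p 1.56e-11) in the cultures labelled Spo11KO, and the interaction was 0.95 (SE 0.107, adjusted p 2.92e-09). The rise of 0.20 in Stra8KO (adjusted p 0.0406) was lost without either Stra8KO Veh library, without Stra8KO NRRA replicate 1 (0.12) and without either Spo11KO NRRA library. Sgce, which starts beside Peg10 on the other strand, instead rose in both genotypes, by 0.69 and 0.63. Ppp1r9a of the same cluster was lower in Stra8KO in both media (-0.61 and -0.95), and Asb4 higher (0.68 and 1.05), the former of the Asb4 values being lost without Stra8KO Veh replicate 2 (0.59, adjusted p 0.111) or Spo11KO Veh replicate 1 (0.61, adjusted p 0.101).

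Beside these, the 8 markers of undifferentiated spermatogonia, Gfra1, Etv5 and Ret among them, had a median change of -2.81 in the cultures labelled Spo11KO and of -0.26 in Stra8KO. All 8 were lower in Stra8KO in Veh, all 8 higher there in NRRA, and their median interaction was 2.68. They together took 0.136% and 0.133% of counts in Spo11KO Veh, 0.0312% in both Spo11KO NRRA libraries, and 0.0533% to 0.0581% in Stra8KO. Whether Plagl1, Mest, Peg10 and Igf2 changed with the share of such cells was not tested.

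**Figure D3:**
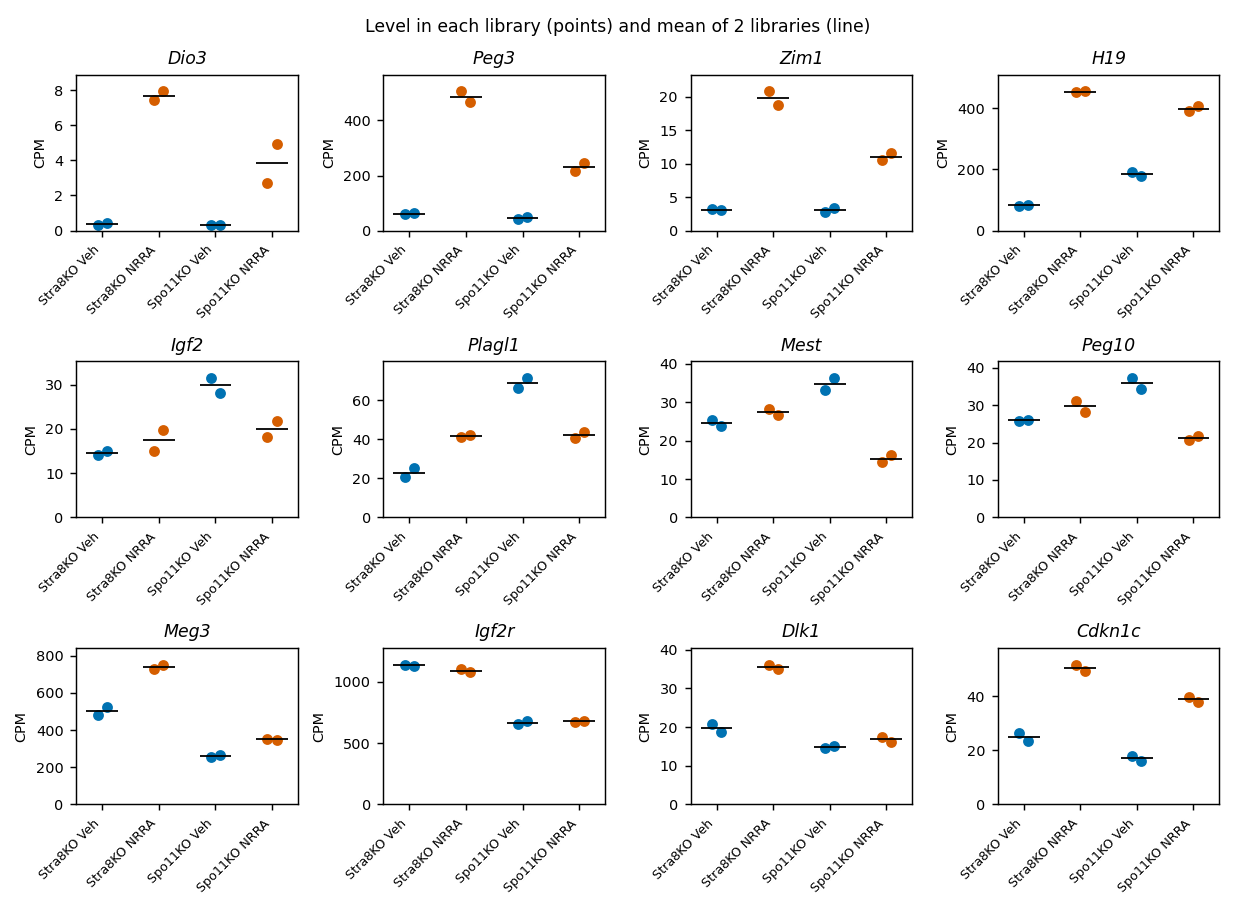
CPM of 12 imprinted genes in each library (points, Veh in blue and NRRA in orange) with the mean of the 2 libraries of a group (line). Dio3, Peg3, Zim1 and H19 are high in both NRRA groups, while Igf2, Plagl1, Mest and Peg10 are highest in Spo11KO Veh, and Igf2r is higher in both Stra8KO groups.

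Grb10, an adaptor that dampens insulin and IGF signalling (chromosome 11, 11930508 to 12038683, minus strand), had 210.1 and 209 CPM with Veh and 451 and 443 with NRRA in Stra8KO, against 110.1 and 117 with Veh and 216 and 220.0 with NRRA in those labelled Spo11KO. Stra8KO was higher in each medium, and NRRA higher in each genotype. The rises were 1.09 (log2, SE 0.039, edgeR adjusted p 1.35e-25) and 0.95 (SE 0.0407, adjusted p 9.41e-23). Their difference of 0.15 (adjusted p 0.0483) was lost in 7 of 8 refits that left out a library, with values from 0.11 to 0.16 in those refits. Ddc, a neighbour that encodes an enzyme of dopamine and serotonin synthesis, had 1.92 and 1.96 CPM with Veh and 5.94 and 5.54 with NRRA in Stra8KO, against 2.65 and 3.44 with Veh and 3.32 and 3.62 with NRRA in those labelled Spo11KO. The Stra8KO NRRA libraries stood above all others, and the Stra8KO Veh libraries below all others. It rose by 1.56 (log2, SE 0.205, adjusted p 2.71e-08) in Stra8KO, beside 0.19 (SE 0.19, adjusted p 0.424) in the other genotype, and the interaction of 1.37 was called (SE 0.286, adjusted p 2.71e-04).

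The cluster of Snrpn, Ndn, Magel2, Mkrn3 and Ube3a on chromosome 7 corresponds to the human region of Prader-Willi and Angelman syndromes. Mkrn3, a ring finger gene, had 2.46 and 2.92 CPM with Veh and 3.52 and 2.54 with NRRA in Stra8KO, against 3.62 and 3.22 with Veh and 5.75 and 6.45 with NRRA in those labelled Spo11KO. The last group alone stood above all others. Mkrn3 rose there by 0.84 (log2, SE 0.167, edgeR adjusted p 4.83e-05), beside 0.17 (SE 0.225, adjusted p 0.576) in Stra8KO, and the difference of -0.66 was not called (adjusted p 0.0857).

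Magel2 of the same cluster had 3, 1, 9 and 4 counts in Stra8KO (Veh, then NRRA) and 3, 1, 26 and 27 in the cultures labelled Spo11KO. Per library size, the summed counts after NRRA were 11.2 times those of Veh in the latter (95% exact interval 4.13 to 42.7) and 3.24 times in Stra8KO (1.00 to 13.6). These intervals cover counting error only. By edgeR the first change was called (adjusted p 9.93e-06) and the second was not (adjusted p 0.128). Snrpn, a splicing protein gene, fell by 0.65 in the cultures labelled Spo11KO (adjusted p 7.79e-04), and its interaction of 0.65 was lost in each of the 8 refits without 1 library, at 0.62 to 0.67. It shares exon bases with Snurf and Gm38393 on the same strand. Ndn, a growth suppressor of neurons, was higher in Stra8KO by 0.65 in Veh and 0.70 in NRRA, and Ube3a, a ubiquitin ligase gene, stayed within 0.17 (log2) of no change in the 4 comparisons of groups.

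Rasgrf1, a Ras activator that carries one of the paternal methylation imprints (chromosome 9, 89909908 to 90026977, plus strand), fell most of the 44 genes in Stra8KO. It had 3.40 and 3.12 CPM with Veh and 1.16 and 1.89 with NRRA in Stra8KO, against 8.21 and 8.75 with Veh and 4.90 and 5.77 with NRRA in those labelled Spo11KO. The 4 groups did not overlap. It fell by 1.09 (log2, SE 0.252, edgeR adjusted p 4.52e-04) in Stra8KO and by 0.66 (SE 0.14, adjusted p 1.06e-04) in the cultures labelled Spo11KO, and its genotype differences were -1.37 in Veh and -1.80 in NRRA.

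Gnas, the gene of the stimulatory G protein alpha subunit (chromosome 2, 174284320 to 174346744, plus strand), had 1103 and 1071 CPM with Veh and 996 and 999.7 with NRRA in Stra8KO, against 709 and 708 with Veh and 481 and 494 with NRRA in those labelled Spo11KO. NRRA libraries were lower in both genotypes. It fell by 0.54 (log2, SE 0.0327, edgeR adjusted p 8.68e-18) in the cultures labelled Spo11KO and by 0.12 in Stra8KO, where the call was lost without Stra8KO Veh replicate 1 (-0.10, adjusted p 0.0668). The interaction was 0.42 (SE 0.0459). Impact, a regulator of translation under amino acid shortage, had 138 and 131 CPM with Veh and 118 and 112 with NRRA in Stra8KO, against 65.1 and 67.4 with Veh and 61.0 and 60.01 with NRRA in those labelled Spo11KO. Its levels split by genotype, by 1.02 (log2, SE 0.0495) in Veh and 0.93 (SE 0.0497) in NRRA, and NRRA lowered it by 0.22 in Stra8KO. Its fall of 0.13 in the cultures labelled Spo11KO was lost without Spo11KO NRRA replicate 2 or Spo11KO Veh replicate 2, and with total counts.

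Zdbf2, whose imprint begins with a transcript read before implantation, rose by 0.70 (log2, SE 0.0659, edgeR adjusted p 4.65e-12) in the cultures labelled Spo11KO, beside 0.12 (SE 0.0737, adjusted p 0.199) in Stra8KO, with an interaction of -0.58 (adjusted p 1.22e-05). Among the members not yet given, Inpp5f fell in both genotypes (-0.29 and -0.27) and Peg13 did as well (-0.28 and -0.26). The Peg13 call in the cultures labelled Spo11KO was lost without Spo11KO Veh replicate 1 (-0.17) or Spo11KO NRRA replicate 1 (-0.19). Mcts2, which has a parent gene elsewhere in the genome whose reads may be mixed with its own, fell by 0.42 and 0.45. Without Stra8KO Veh replicate 2 the former was -0.36 (adjusted p 0.0811), and without Spo11KO Veh replicate 2 the latter was -0.30 (adjusted p 0.073). Nnat, Blcap, H13, Trappc9, Zrsr1 and Nap1l5 had changes under NRRA between -0.21 and 0.68 (log2).

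At edgeR adjusted p under 0.05, 33 (Veh) and 39 (NRRA) of the 44 were called between genotypes. Under NRRA 30 (Stra8KO) and 32 (labelled Spo11KO) were called. Over all genes these shares were 62.1% and 64.3% beside 41.5% and 50.3%. With at least a 2-fold change the order did not hold for imprinted genes, at 6 and 10 beside 11 and 7. Over all genes the 2-fold shares were 16.2% and 18.7% beside 10.6% and 12.4%. The knockouts came from separate cultures, so the knockout and other differences between these cultures cannot be told apart. In both media 18 imprinted genes were higher in Stra8KO and 6 lower, which is 40.9% and 13.6% of the 44, beside 24.6% and 21.3% of all tested genes. Igf2r, Meg3, Rian, Grb10, Gnas, Impact, Airn, Ndn and H13 were among the former. All 16 fibroblast markers were higher in Stra8KO too, by 0.48 to 1.55 in Veh and 0.78 to 1.08 in NRRA, and all 8 pan-germ markers lower, by values from -1.16 to -0.85 and from -1.29 to -0.56. The difference of 18 imprinted genes in each medium lay inside the range of the fibroblast markers, and that of 12 of them in both, namely Airn, Asb4, Gnas, Grb10, Impact, Meg3, Mirg, Nap1l5, Rian, Rtl1, Sgce and Slc22a18. Of these 12, Nap1l5 and Rtl1 were not called in Veh (edgeR adjusted p 0.0661 and 0.0708). The Nap1l5 call in NRRA was lost without either Stra8KO NRRA library or without Spo11KO NRRA replicate 2. Inside the pan-germ range lay Igf2 and Usp29 in Veh, and Copg2, Mkrn3, Ppp1r9a and Zdbf2 in NRRA. The share of all tested genes inside these ranges is not given here, so the counts cannot be set against it. Whether feeder cells are the source of any of these transcripts was not tested.

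Of the 44 genes, 5 were called on opposite sides in the 2 media. Ddc, H19, Mest and Peg10 were lower in Stra8KO in Veh and higher in NRRA, as were 2.81% of all tested genes, and Ube3a was higher in Veh (0.12) and lower in NRRA (-0.16), as were 0.942% of them. The Ube3a difference was lost without Stra8KO Veh replicate 1 or 2 or Spo11KO Veh replicate 1 in Veh, and without replicate 2 of either genotype in NRRA. The Ddc difference of -0.64 in Veh was lost without Spo11KO Veh replicate 2 (-0.45, edgeR adjusted p 0.192) or without either Stra8KO Veh library. The H19 difference in NRRA turned with total counts, as given above.

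**Figure D4:**
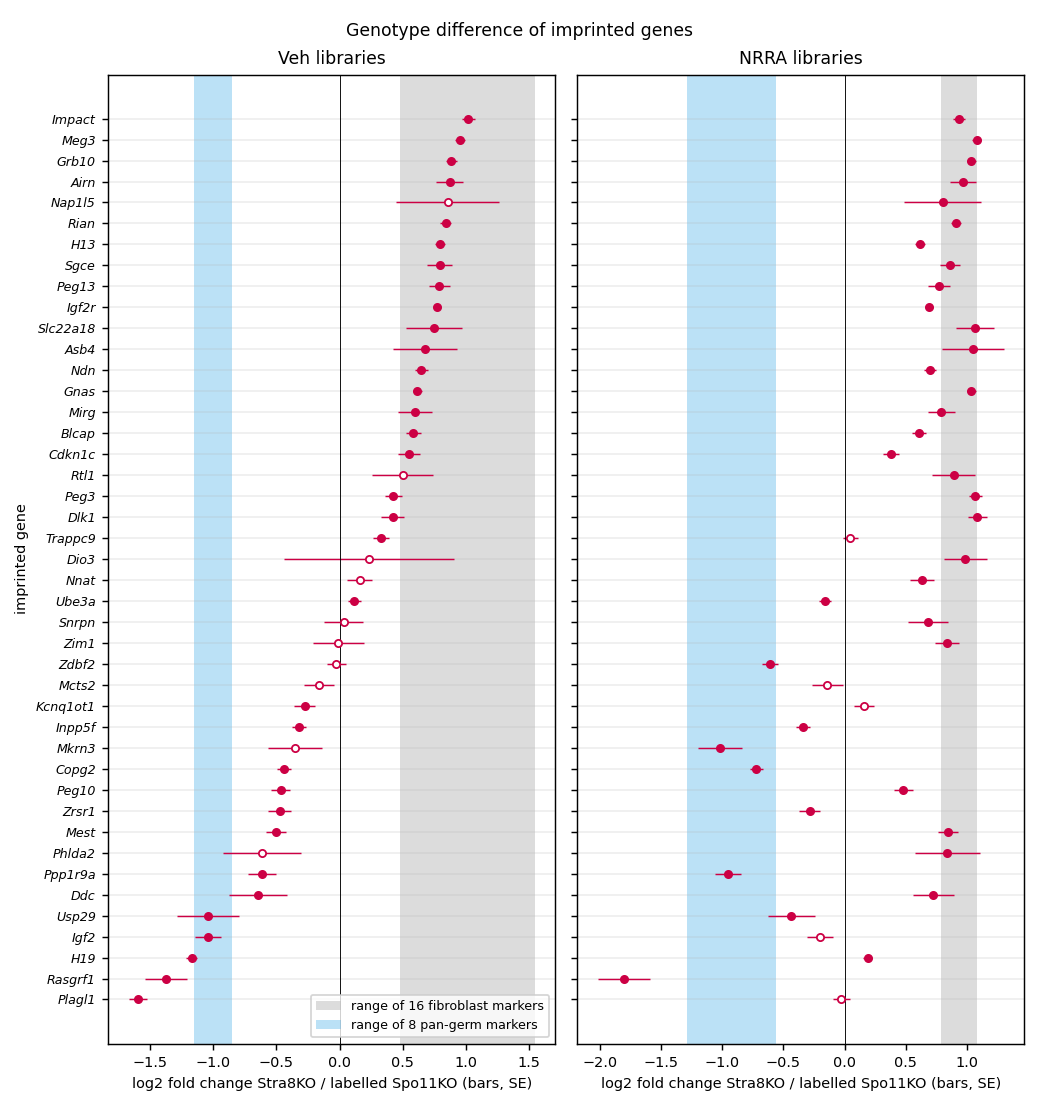
Log2 fold change of Stra8KO over the cultures labelled Spo11KO in Veh (left) and NRRA (right) for 43 imprinted genes (Magel2 left out), with SE as bars, called genes as filled circles, and the ranges of 16 fibroblast markers (grey) and 8 pan-germ markers (blue). The genes from Impact down to Rtl1 lie in the grey range in Veh, while H19, Rasgrf1 and Plagl1 lie below the blue one.

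A further 30 imprinted genes were taken for comparison, of which 29 were in the table and 23 were tested. Under NRRA 13 of the 23 were called in Stra8KO (6 higher, 7 lower) and 14 in the cultures labelled Spo11KO (8 higher, 6 lower), beside 41.5% and 50.3% of all genes. Ascl2, a maternally expressed transcription factor of the placenta, rose by 1.69 and 1.45. Tfpi2, a protease inhibitor, fell by 1.86 and by 1.70. Slc38a4, an amino acid transporter, fell by 0.86 in the cultures labelled Spo11KO alone and had an interaction of 1.07 (edgeR adjusted p 2.71e-09), and Sfmbt2, a Polycomb gene, fell there by 0.71 (interaction 0.73). Between genotypes 16 were called in Veh (10 higher, 6 lower) and 20 in NRRA (10 and 10), with 9 called for the interaction (3 positive, 6 negative), beside 62.1%, 64.3% and 24.7% of all genes. Of the called interactions, 2 negative and 1 positive were at least 2-fold. Called or not, values of the 23 ran from -2.09 to 1.69 under NRRA in Stra8KO and from -1.70 to 1.54 in the other genotype. They ran from -3.02 to 1.19 between genotypes in NRRA and from -2.82 to 1.07 for the interaction.

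Of 13 genes that keep or read imprints, 3 were called under NRRA in Stra8KO, all lower (Uhrf1 at -0.21, Dnmt1 and Hells at -0.11). In the cultures labelled Spo11KO 8 were called, 2 higher and 6 lower, where all genes had 41.5% and 50.3%. Only 1 of these calls was at least 2-fold, a fall in the cultures labelled Spo11KO. Log2 changes of the 13 ran from -0.21 to 0.31 in Stra8KO and from -3.36 to 0.53 in the other genotype. Zfp57 had 14.6 and 14.8 CPM with Veh and 16.4 in both libraries with NRRA in Stra8KO, against 13.9 and 14.0 with Veh and 8.87 and 9.66 with NRRA in those labelled Spo11KO. It fell by 0.59 in the cultures labelled Spo11KO (edgeR adjusted p 5.50e-06), beside 0.16 (adjusted p 0.192) in Stra8KO, with an interaction of 0.75 (adjusted p 6.43e-05). Between genotypes 11 of the 13 were called in Veh, 2 higher and 9 lower in Stra8KO, and 12 in NRRA, 4 higher and 8 lower. Uhrf1 (-1.16 in Veh), Dnmt1 (-0.92) and Hells (-0.85), which together keep DNA methylation through division, stood beside a range of -1.16 to -0.85 for the pan-germ markers. For the interaction 7 were positive and 2 negative, with values of the 13 from -0.39 to 3.67. Genotype differences of the 13 in NRRA ran from -1.16 to 4.665. All genes had 62.1%, 64.3% and 24.7% in these 3 comparisons.

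Of 10 genes that set or remove imprints in germ cells, 6 rose and 1 fell in Stra8KO, and 3 rose and 2 fell in the cultures labelled Spo11KO, beside 41.5% and 50.3% of all genes called. Dnmt3b, a de novo DNA methyltransferase, rose by 0.48 and 0.98 (interaction -0.50, edgeR adjusted p 2.03e-06), and Tet3, which oxidises methylated cytosine, by 0.52 and 1.55 (interaction -1.03, adjusted p 2.90e-15). Dnmt3c had 1 or 2 counts in each Veh library, 18 and 14 in Stra8KO NRRA, and 4 and 5 in Spo11KO NRRA. It is among the 10 genes counted here. It passed the filter on low counts only through Stra8KO NRRA, so its changes are not independent of that filter. In Veh 3 were higher in Stra8KO and 5 lower, among the latter Ctcfl, the germ line relative of Ctcf, at -1.22. In NRRA 3 were higher and 6 lower, and the interaction was positive for 3 and negative for 2, beside 62.1%, 64.3% and 24.7% of all genes called.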

How the data were processed

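Stranded poly(A) RNA libraries of 8 spermatogonial cultures were sequenced on a NovaSeq. The authors deposited raw counts per gene, and the submitters' processing notes name bcl2fastq, STAR 2.6.1c, featureCounts 1.6.4 and the mm10 build. The strand setting of counting is not given in the sources used here. Groups came from the labels' source names, because the treatment text names NRRA for every sample. The 44 members and all gene lists were chosen with earlier results of these data known.

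Counts were tested with edgeR 4.0.16 (filterByExpr, TMM, robust quasi-likelihood F test, 1 mean per group over all 8 libraries) in R 4.3.3, with Benjamini-Hochberg adjustment over 20588 genes holding 99.9% of counts. SE was the absolute log2 fold change over the square root of F. Exon lengths and coordinates came from GENCODE M21 on GRCm38, where 55240 of 55421 IDs matched. Alternatives used DESeq2 1.42.0, other scalings, filters and sets of libraries. Scripts were tested on simulated data. Replicates differed by more than sampling noise (mean chi-square per gene 1.86 to 4.12) and were counted separately. Their common biological coefficient of variation by edgeR was 3.39%, and the p-values rest on this small spread between 2 libraries in each group. Members given by library were up to 8 per comparison with the largest called changes and an average log2 CPM of at least 1, plus H19, Igf2, Meg3, Dlk1, Peg3, Igf2r and Cdkn1c, while others were named to complete each domain after their values were seen.

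Of the gene lists, the 6 markers of differentiating spermatogonia had 4 members up and 0 down under NRRA in Stra8KO, and 5 up and 1 down in the other genotype. Beside them, 21.4% of all tested genes rose and 20.1% fell in Stra8KO, and 24.7% and 25.5% in the other genotype. Stra8, the gene targeted in Stra8KO, is among the 6 and rose by 7.25 and 9.24 (log2). The count error at the depth of 20960794 to 27038868 counts is largest for the genes with few counts, such as Magel2 and Dio3 in Veh, where 3 counts per library were taken as the floor.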

Additional observations from a re-analysis of the deposited data

Results flagged for a closer look

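For 20 imprinted genes the NRRA effect differed between genotypes by edgeR's quasi-likelihood test of the interaction with Benjamini-Hochberg adjustment, where 24.7% of all tested genes were called. Values are the log2 effect in Stra8KO minus that in the cultures labelled Spo11KO, and all 8 libraries enter each of them.

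Positive values were found for Plagl1 (1.57), Phlda2 (1.45), Ddc (1.37), H19 (1.36), Mest (1.35), Peg10 (0.95), Igf2 (0.84), Zim1 (0.84), Dlk1 (0.66), Snrpn (0.65), Peg3 (0.64), Nnat (0.47), Kcnq1ot1 (0.43), Gnas (0.42) and Grb10 (0.15). Negative ones were found for Zdbf2 (-0.58), Copg2 (-0.28), Ube3a (-0.28), Trappc9 (-0.28) and H13 (-0.18). In refits without 1 library, 8 of the 20 calls were lost at least once by edgeR. Snrpn was lost in all 8 refits and Grb10 in 7. Kcnq1ot1 (0.28, adjusted p 0.0644) and Zim1 (0.70, adjusted p 0.0644) were lost without Spo11KO Veh replicate 2, and Phlda2 (1.20, adjusted p 0.0531) without Stra8KO Veh replicate 2. Without Stra8KO Veh replicate 1, Nnat (0.38, adjusted p 0.0891), Trappc9 (-0.27, adjusted p 0.0664) and H13 (-0.15, adjusted p 0.16) were lost. Nnat was also lost without Spo11KO NRRA replicate 1 (0.36, adjusted p 0.0762), Trappc9 without Spo11KO NRRA replicate 2 (-0.25, adjusted p 0.0702) and H13 without Stra8KO NRRA replicate 2 (-0.18, adjusted p 0.0533). Beside them, the 8 undifferentiated spermatogonia markers had a median interaction of 2.68, the 16 fibroblast markers one of 0.04 and the pan-germ markers one of 0.001. Whether the cell make-up moved these genes was not tested. With 2 libraries in a group, no single library could be tested as an outlier.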

How the results depend on the processing

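Of 2481 recomputed values of the 154 called differences, 2350 kept their direction and call, 130 kept the direction only, and 1 reversed, which was H19 between genotypes in NRRA with total counts (-0.0199, edgeR adjusted p 0.659). The cause was not tested. Calls that also needed a 2-fold change numbered 11 (NRRA in Stra8KO), 7 (NRRA in the cultures labelled Spo11KO), 6 (genotype in Veh), 10 (genotype in NRRA) and 5 (interaction), because that rule leaves out smaller changes. Leaving out 1 library gave 23 to 31, 27 to 32, 30 to 33, 35 to 39 and 15 to 20 calls in the same order, and 37 of the 154 calls were lost in at least 1 such refit. DESeq2's Wald test gave 27, 28, 30, 35 and 16 calls. It called fewer of all genes too, at 33.5%, 40.4%, 53.4%, 54.8% and 17.6%. A replicate block gave 31, 32, 33, 40 and 19, but the numbers were not shown to pair the libraries (correlations of deviations 0.03, 0.23, -4.30e-04 and -0.10). With the numbers crossed, an alternative chosen after seeing the data, genotype in NRRA had 40 calls, and edgeR's earlier quasi-likelihood method, likewise added, lost no call. Depth limits Magel2, Dio3, Phlda2 and Nap1l5, which had under 1 CPM in some library.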
